A study of Mus musculus with 6 samples.

Results

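The insulin-like growth factor (IGF) system was described in cultured mouse lymphatic endothelial cells (LEC) from tumours and from normal skin. The 10 genes taken were the ligands Igf1 and Igf2, the receptors Igf1r and Igf2r, and the binding proteins Igfbp2 to Igfbp7, chosen by name from 12954 genes tested on Affymetrix arrays. A gene was read from the probe sets that carry its symbol alone, and its value was that of the probe set with the highest mean over the 6 arrays, on a log2 scale. All 10 had such a probe set and passed the filter on low values.

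The tumour group held 3 arrays of LEC taken from fibrosarcomas in C57BL/6 mice. The mice had been injected with T241/VEGF-C/GFP cells, a mouse fibrosarcoma line that carries the lymphatic growth factor VEGF-C and a green fluorescent protein. The normal group held 3 arrays of LEC from the dermis of the tail, taken from female C57BL/6 mice aged 8 weeks, and the age of the tumour-bearing mice is not given in the sources used here. Both kinds of cell were cultured on gelatin in EGM-2, an endothelial medium that is sold with a recombinant form of IGF-1 among its supplements, and were selected with antibodies to LYVE-1 on magnetic beads. The tumour arrays are titled as tumour cells but described as LEC taken out of tumours, and the description was used. Nothing in the labels ties the replicates to separate animals or cultures, and the p-values therefore reflect the spread among 3 arrays a group, which may be technical.

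IGF-1 and IGF-2 are small secreted hormones related to insulin. They signal through the tyrosine kinase receptor encoded by Igf1r, which passes the signal to docking proteins such as IRS-1 and on to phosphoinositide 3-kinase and AKT. The product of Igf2r, also known as the cation-independent mannose 6-phosphate receptor, takes up IGF-2 for breakdown and carries lysosomal enzymes, and it has no kinase. IGF-binding proteins hold the ligands outside the cell, and proteases that cut them set the ligands free. IGFBP-7 binds IGFs only weakly and is a secreted protein of vessel walls.

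As a check of the cells, Lyve1 and Prox1, which mark lymphatic endothelium, lay well above background on all 6 arrays. Cdh5, the cadherin of endothelial junctions, lay between 9.62 and 11.65, lowest in normal replicate 1. The groups were not equal in endothelial signal. Of 12 endothelial genes tested, 11 had the higher mean on the tumour arrays, as did 6878 of all 12954 genes. For 5 of the 12, Cdh5 included, the tumour arrays were higher without overlap, against 20.9% of all genes. Median deviations of these 12 genes from their means over the 6 arrays were -1.34, -0.35 and 0.15 on normal arrays 1 to 3. On the tumour arrays they were 0.49 to 0.96. Pecam1, another of the 12, read 5.59 in normal replicate 1 and 8.86 in tumour replicate 1. Of the 9 lymphatic genes tested, Mmrn1 was at background on all 6 arrays (2.79 to 3.30), and Itga9 lay only a little above it (4.22 to 4.61). Foxc2, a transcription factor of lymphatic valves, read 7.36 to 8.50 in normal and 5.88 to 6.57 in tumour LEC, a difference of -1.74 (SE 0.36) with no overlap that did not pass the test (limma adjusted p = 0.126). Markers of other cells differed between arrays. Of 14 fibroblast genes tested, 13 were highest in normal replicate 1. Relative to each gene's mean over the 6 arrays, the list had a median of 4.16 in that array, 1.15 and 1.28 in normal replicates 2 and 3, and -1.99 to -1.84 in tumour LEC. Its summed signal was 15.09 to 16.33 (log2) on the normal and 13.30 to 14.18 on the tumour arrays. Thy1, the only gene of the list with the higher mean in tumour LEC, was its brightest gene there, at 12.97 to 13.67. Of 8 leukocyte and macrophage genes tested, 7 were highest in tumour replicate 1, with a median deviation of 2.09 there and -0.61 to 0.39 elsewhere, and their summed signal was 10.86 to 12.16 on the normal and 10.82 to 12.52 on the tumour arrays. In tumour replicate 3 that sum was 12.05, and Cd14 alone read 12.00. Ptprc, the leukocyte antigen CD45, was above background in tumour replicate 1 alone, at 5.92 in its brighter probe set. Its other set was at background on all arrays. Genes of smooth muscle and pericytes had a median difference between tumour and normal LEC of -0.38 (6 genes), keratinocyte genes of 0.01 (4 genes) and lymphatic genes of 0.09 (9 genes). Background was set per array at the brightest of 27 probe sets for bacterial transcripts that the samples lack, which read 3.40 to 3.71. In cultures that mix cell types, fewer cells of a type and less RNA per cell cannot be told apart.

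For 4 genes the 250 bases before the annotated transcription start are shown, from RefSeq (GRCm38.p6), 5′ to 3′ on the gene's strand, since the results turn on them: Igf2r and Igfbp6 had the lowest tumour values relative to normal in the family, Igfbp7 the highest, and Irs1 was the one gene of the pathway past the test. Capitals mark GC boxes (GGGCGG or, on the other strand, CCGCCC), E-boxes (CACGTG, which reads the same on both strands) and TATA boxes (TATAAA or TTTATA).
Igf2r, chr17:12769707-12769956, minus strand: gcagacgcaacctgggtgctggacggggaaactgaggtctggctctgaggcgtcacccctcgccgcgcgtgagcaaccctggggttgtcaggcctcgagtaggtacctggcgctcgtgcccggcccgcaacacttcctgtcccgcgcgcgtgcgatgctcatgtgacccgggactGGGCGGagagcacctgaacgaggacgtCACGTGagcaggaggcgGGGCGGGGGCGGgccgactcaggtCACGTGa
Igfbp6, chr15:102143936-102144185, plus strand: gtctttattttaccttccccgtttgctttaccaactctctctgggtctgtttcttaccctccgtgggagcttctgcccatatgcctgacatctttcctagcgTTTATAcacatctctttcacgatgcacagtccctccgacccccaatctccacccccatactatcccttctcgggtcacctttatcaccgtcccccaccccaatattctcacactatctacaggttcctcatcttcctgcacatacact
Igfbp7, chr5:77408046-77408295, minus strand: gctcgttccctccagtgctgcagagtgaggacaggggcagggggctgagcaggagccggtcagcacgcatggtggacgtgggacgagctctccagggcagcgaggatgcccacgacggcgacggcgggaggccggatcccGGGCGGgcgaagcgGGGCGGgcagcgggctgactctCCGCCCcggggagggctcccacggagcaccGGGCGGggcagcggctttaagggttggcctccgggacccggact
Irs1, chr1:82291440-82291689, minus strand: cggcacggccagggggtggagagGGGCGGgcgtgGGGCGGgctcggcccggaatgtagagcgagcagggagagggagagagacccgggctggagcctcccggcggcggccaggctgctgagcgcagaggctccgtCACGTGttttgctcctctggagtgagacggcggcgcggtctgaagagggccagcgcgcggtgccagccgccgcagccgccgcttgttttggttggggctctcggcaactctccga
The Igf2r window held 3 GC boxes and 2 E-boxes, and that of Irs1 held 2 and 1. Igfbp7 had 4 GC boxes and no E-box, and Igfbp6 neither, with 1 TATA box match far from the start. Of 32851 windows of the same length, 32.7% held a GC box, 6.02% an E-box and 12.4% a TATA box. Among the 4 genes shown, no motif searched was shared by all 3 that were lower in tumour LEC (Igf2r, Igfbp6 and Irs1). Other genes lower in tumour LEC, such as Igfbp3, are not shown. These matches are letters in a window, and no binding was measured.

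The widest differences in the family were in Igf2r and Igfbp6, both about 4 log2 units lower in tumour than in normal LEC, and Igfbp7 was higher in tumour LEC. The groups did not overlap for these genes and for Igfbp3. None of the 10 genes passed the threshold over all genes (limma, adjusted p under 0.05), which 28 of 12954 genes (0.216%) did. Without adjustment 4 of the 10, Igf2r, Igfbp3, Igfbp6 and Igfbp7, had a p under 0.05, against 15.5% of all genes. The groups did not overlap for 3 members lower in tumour LEC, against 11.6% of all genes, and for 1 higher, against 20.9%, and 4 members differed at least 2-fold, against 10.6%. The median difference over the 10 genes was -0.32, with 3 positive and 7 negative, and over all genes it was 0.03. These shares and medians are descriptions and were not tested. The median of the 10 genes rests on single arrays: it was -0.14 and -0.71 without normal replicates 1 and 2, and -0.76, -0.0043 and -0.04 without tumour replicates 1, 2 and 3.

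**Figure D1:**
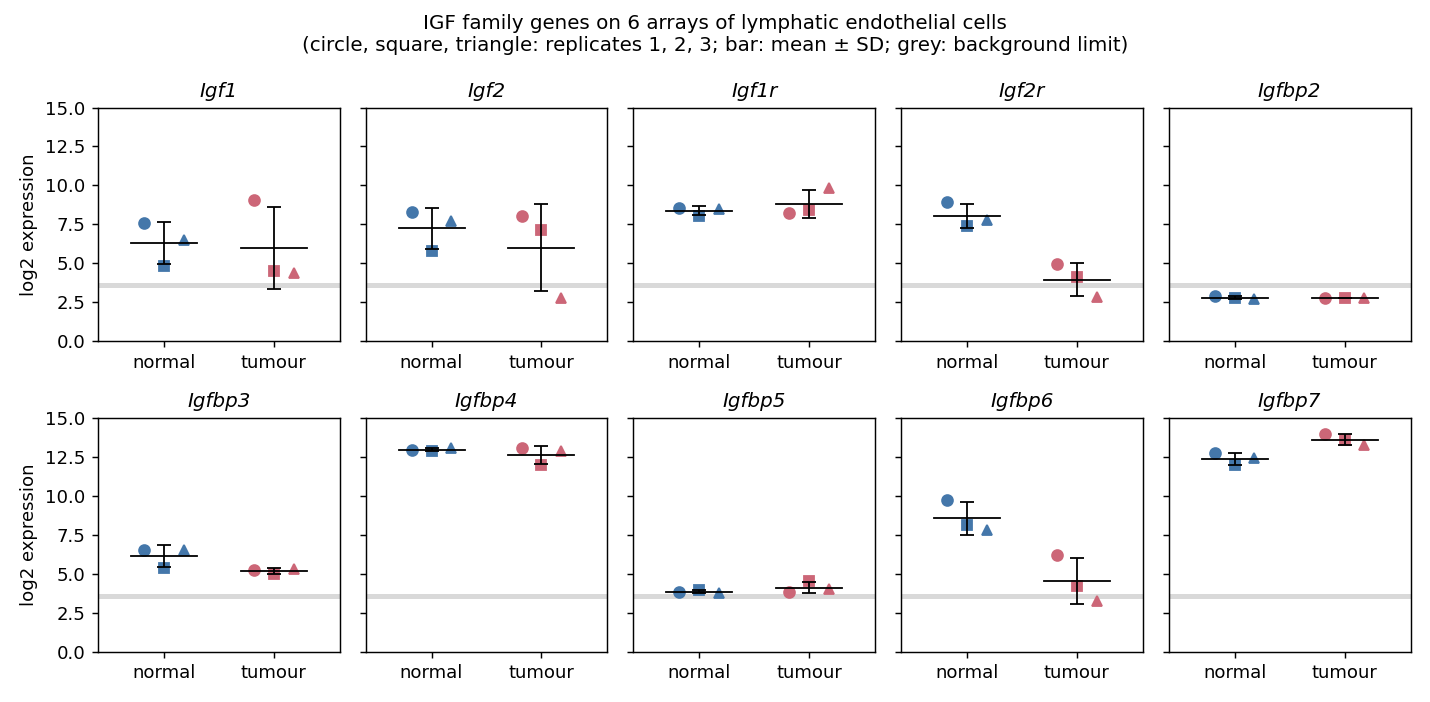
Log2 expression of the 10 IGF family genes (y axis) on the 3 normal and 3 tumour LEC arrays; points are arrays, bars the mean ± SD (n = 3), and the grey band the range of the arrays' background limits, 3.40 to 3.71. Igf2r and Igfbp6 sit lower and Igfbp7 higher on every tumour array, while Igf1 and Igf2 are spread widely within the tumour group.

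Igf1, a ligand made mainly by liver, mesenchymal cells and macrophages, was uneven in both groups. It read 7.56, 4.85 and 6.47 on normal arrays 1 to 3 and 9.05, 4.50 and 4.40 on tumour arrays 1 to 3. Tumour replicate 1 was the highest of all arrays and the other tumour arrays were the lowest, so the groups overlapped. The difference was -0.31 (SE 1.46, 95% interval -3.94 to 3.33, adjusted p = 0.916), which leaves large differences in either direction undetectable with these arrays. Its sign turned with 1 array left out, from -1.84 without tumour replicate 1 to 0.33 without normal replicate 1 and to 0.44 and 0.49 without tumour replicates 2 and 3.

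All 4 probe sets of Igf1 had this pattern. Tumour replicate 1 was highest in each, at 7.65, 7.95 and 7.74 in the 3 not used above. In 2 of them the other tumour arrays lay at background, at 2.75 and 1.92 in one and at 2.10 and 1.99 in the other. Normal replicate 1 was the next highest in all 4 sets. There the fibroblast list had its highest median deviation (4.16), and the leukocyte and macrophage list had one of -0.48. Tumour replicate 1 was the array where the leukocyte and macrophage list was highest. Csf1r, the receptor for the macrophage growth factor CSF-1 and a member of that list, read 8.58 there, 3.77 and 3.88 on the other tumour arrays and 5.25 to 7.20 on the normal arrays. Among 11096 other genes above background on some array, the profile of Igf1 over the 6 arrays was nearest to Cxcl17, which encodes a chemokine, and Csf1r. Their root mean square distances were 0.41 and 0.44 log2 units after centring each gene on its mean. Igf1 was picked for this comparison after its values were seen. The other probe sets of Csf1r were dim and varied little, with differences of -0.09 and 0.21. The parts of leukocytes and of fibroblasts in the Igf1 values were not tested.

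Igf2, the fetal growth factor whose gene is imprinted, was detected on 5 arrays. It read 8.26, 5.78 and 7.72 on the normal arrays and 8.02, 7.17 and 2.80 on the tumour arrays. Tumour replicate 3 was at background, and the other tumour arrays lay within the range of the normal ones. The difference was -1.26 (SE 1.51, 95% interval -5.01 to 2.49, adjusted p = 0.664), and it was 0.34 without tumour replicate 3. The other Igf2 probe set did not pass the filter and was at background on all arrays. The nearest profiles were those of Prickle2, a planar polarity gene, and Nnmt, which encodes nicotinamide N-methyltransferase, at distances of 0.59 and 0.62. Both were also lowest in tumour replicate 3, at 2.27 and 5.73. The median of the bacterial controls was 2.56 to 2.61 on 5 arrays and 2.77 on tumour replicate 3, and the part of array quality in its Igf2 value was not tested.

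Igf1r, the signalling receptor, was clearly detected in both groups and did not pass the test. It read 8.57, 8.07 and 8.50 on the normal arrays and 8.22, 8.40 and 9.83 on the tumour arrays. Only tumour replicate 3 lay outside the range of the normal arrays. The difference was 0.44 (SE 0.46, 95% interval -0.71 to 1.58, adjusted p = 0.623), and it was -0.07 without tumour replicate 3. The 4 probe sets past the filter differed by -0.02 to 0.57, and in each of them tumour replicate 3 was the highest array. The fifth was at background on all arrays.

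Igf2r, the scavenging receptor, was lower on every tumour array than on any normal array. It read 8.94, 7.42 and 7.75 on the normal arrays and 4.94, 4.09 and 2.83 on the tumour arrays. Normal replicate 1 was the highest and tumour replicate 3, at background, the lowest. The means were 8.04 ± 0.80 and 3.95 ± 1.06 (SD, n = 3), a difference of -4.08 (SE 0.65, 95% interval -5.71 to -2.46, adjusted p = 0.0863). With the value at background raised to its array's limit, the tumour mean in this probe set was at least 13.8-fold lower. That bound allows for background only, and the 95% interval, which ends at -2.46, reaches smaller differences. The second probe set of Igf2r read 7.62, 6.47 and 7.23 on the normal and 5.09, 4.12 and 3.94 on the tumour arrays, again without overlap. That set differed by -2.73 (6.62-fold, SE 0.42, adjusted p = 0.0942 over 27018 probe sets), which is a smaller difference than that of the brighter set.

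The array with the highest fibroblast genes was also the highest for Igf2r. Without normal replicate 1 the difference was -3.63 and the adjusted p = 0.169, and over all alternatives it lay between -4.58 and -3.41 with an adjusted p of 0.0264 to 0.237. It passed in 1 of 16 alternatives, with arrays weighted by quality. The profile of Igf2r was nearest to those of Wnt5a, a Wnt ligand, and Gpx8, a peroxidase of the endoplasmic reticulum, at 0.29 and 0.35 log2 units. Wnt5a read 7.72 to 9.09 on the normal and 2.53 to 4.73 on the tumour arrays. The fibroblast list was also higher in normal replicates 2 and 3 (median deviations 1.15 and 1.28) than on the tumour arrays (-1.99 to -1.84). The part of fibroblasts in the Igf2r difference was not tested.

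The other mannose 6-phosphate receptor gene differed in the other direction. M6pr, the cation-dependent receptor, read 9.58, 10.05 and 10.10 on the normal and 10.48, 10.93 and 10.75 on the tumour arrays, with no overlap. The difference was 0.81 (SE 0.20, adjusted p = 0.174) and its second probe set gave the same 0.81. Of 10 genes of mannose 6-phosphate sorting (the small receptor, the enzymes that add and uncover the tag, the GGA adaptors and 3 cathepsins that are sorted), none passed over all genes by limma (0.216% of all genes did), and 2 had an unadjusted p under 0.05 (15.5% of all genes). Their median difference was -0.10. Gnptab, a subunit of the enzyme that adds the tag, differed by -0.51 (SE 0.16, adjusted p = 0.243), and Gga1, an adaptor, by -0.33 (SE 0.18, adjusted p = 0.428). The cathepsins Ctsb, Ctsd and Ctsl differed by -0.12, -0.09 and 0.03.

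**Figure D2:**
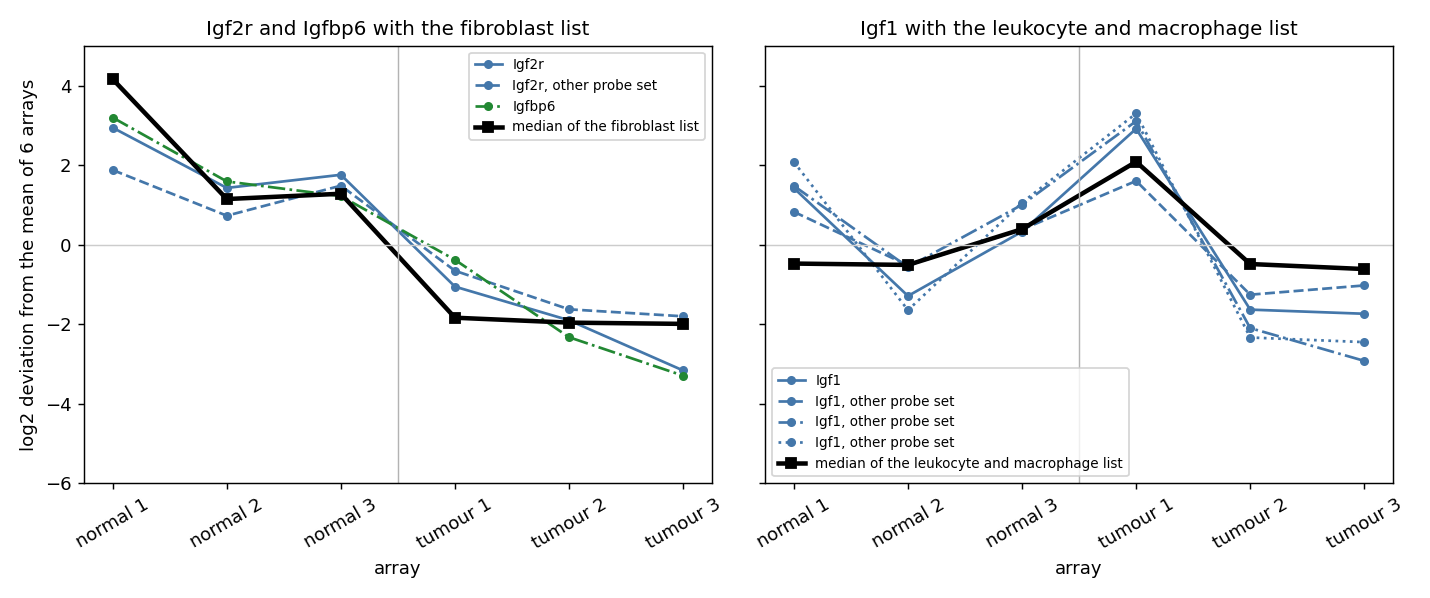
Log2 deviation of each array from the mean of the 6 arrays (y axis) for all probe sets past the filter of Igf2r and Igfbp6 (left) and of Igf1 (right), with the median deviation of the fibroblast list and of the leukocyte and macrophage list in black. Lines only join the values of 1 probe set, and the arrays have no order. The left genes and the fibroblast list are highest in normal replicate 1 (list at 4.16), and the right probe sets and the leukocyte list in tumour replicate 1 (list at 2.09).

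Among the binding proteins, Igfbp6, which prefers IGF-2, was the one furthest below its normal level. It read 9.75, 8.15 and 7.78 on the normal arrays and 6.18, 4.23 and 3.26 on the tumour arrays. The groups did not overlap, normal replicate 1 was again the highest and tumour replicate 3, at background, the lowest. The means were 8.56 ± 1.05 and 4.55 ± 1.49 (SD, n = 3), a difference of -4.01 (SE 0.89, 95% interval -6.22 to -1.79, adjusted p = 0.147). With the value at background raised to its limit, the tumour mean was at least 14.5-fold lower. That bound allows for background only, and the 95% interval, which ends at -1.79, reaches smaller differences. Igfbp6 has 1 probe set, so no other reading of it could be made.

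The spread of Igfbp6 within each group was wide, and single arrays moved its value. The difference was -3.41 without normal replicate 1, and -4.82 and -3.36 without tumour replicates 1 and 3, none of which passed. It passed in 2 of 16 alternatives, one of them with arrays weighted by quality (adjusted p = 0.0425). Its profile was nearest to those of Enah, an actin regulator, and Epb41l4a, of the band 4.1 family, at 0.34 and 0.44 log2 units. Enah read 7.69 to 9.71 on the normal and 2.66 to 6.01 on the tumour arrays. The fibroblast list was highest in normal replicate 1, and also higher in normal replicates 2 and 3 (median deviations 1.15 and 1.28) than on the tumour arrays (-1.99 to -1.84). The part of fibroblasts in the Igfbp6 difference was not tested.

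Igfbp3, which carries most IGF in blood, was lower on the tumour arrays by a narrow margin. It read 6.51, 5.36 and 6.56 on the normal and 5.22, 4.99 and 5.33 on the tumour arrays. Normal replicate 2 lay just above tumour replicate 3, and the other normal arrays were clearly higher. The difference was -0.96 (SE 0.35, 95% interval -1.84 to -0.09, adjusted p = 0.291). The second probe set of Igfbp3 was near background, between 3.51 and 3.69, and differed by -0.04.

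Igfbp4, which restrains IGF action and is cut by the protease PAPP-A, was bright on every array. It read 12.98, 12.86 and 13.06 on the normal and 13.05, 11.97 and 12.87 on the tumour arrays. Tumour replicate 2 alone stood below the normal arrays by more than their spread. The difference was -0.33 (SE 0.30, 95% interval -1.08 to 0.41, adjusted p = 0.577), and it was -0.0048 without tumour replicate 2. All 6 probe sets of Igfbp4 were lowest in tumour replicate 2 and differed by -0.59 to -0.30 between the groups.

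Igfbp5, a binding protein of bone and mesenchymal cells, lay just above background. It read 3.80, 3.95 and 3.78 on the normal and 3.81, 4.54 and 4.00 on the tumour arrays, a difference of 0.27 (SE 0.21, 95% interval -0.25 to 0.80, adjusted p = 0.539). Its second probe set, which did not pass the filter, read 4.44 in normal replicate 1, where fibroblast genes were highest, and 2.10 to 2.20 on the other 5 arrays. Igfbp2 was at background on all arrays, with the same value of 2.80 on 4 of them. No difference in Igfbp2 was detectable at that signal.

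Igfbp7, the vessel wall protein, was higher on every tumour array. It read 12.74, 11.97 and 12.44 on the normal and 13.96, 13.58 and 13.28 on the tumour arrays. The groups did not overlap, and the lowest tumour array was above the highest normal array. The means were 12.39 ± 0.39 and 13.61 ± 0.34 (SD, n = 3), a 2.33-fold difference (log2 difference 1.22, SE 0.27, 95% interval 0.55 to 1.89, adjusted p = 0.144). The second probe set read 6.14, 4.63 and 6.08 on the normal and 7.93, 8.21 and 7.37 on the tumour arrays, a difference of 2.22 (SE 0.48, adjusted p = 0.155 over the probe sets). A further set was at background on all arrays.

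Over the alternatives the difference of Igfbp7 lay between 1.01 and 1.72, with an adjusted p of 0.0495 to 0.321. It passed in 1 of 16, with arrays weighted by quality. Its profile, also compared after its values were seen, was nearest to those of Trpv2, a cation channel, and Enc1, an actin-binding protein, at 0.10 and 0.14 log2 units. Trpv2 read 4.23 to 4.75 on the normal and 5.41 to 6.15 on the tumour arrays. A list of 12 endothelial markers, 8 of them lowest in normal replicate 1, had a median difference of 1.02 between the groups. Without that array Igfbp7 differed by 1.40. The list was also lower in normal replicates 2 and 3 (median deviations -0.35 and 0.15) than on the tumour arrays (0.49 to 0.96). The part of endothelial content in the Igfbp7 difference was not tested.

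**Figure D3:**
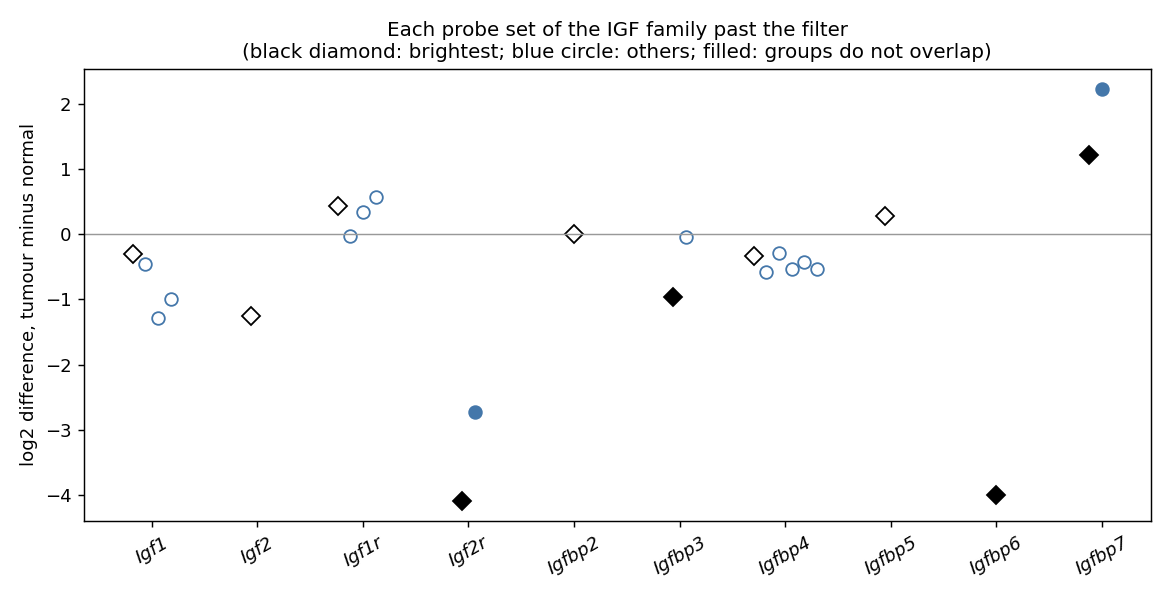
Log2 difference, tumour minus normal LEC (y axis), for each of the 24 probe sets of the IGF family that passed the filter, by gene; black diamonds are the brightest set of a gene, blue circles the others, and filled symbols have groups that do not overlap. Of the 24 sets 18 lie below 0, among them 4 of Igf1 and 6 of Igfbp4, and 6 lie above. Where a gene has more than 1 set, they lie on the same side of 0 for Igf1, Igf2r, Igfbp3, Igfbp4 and Igfbp7. Those of Igf1r lie on both sides.

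The other genes of the pathway were taken from a list of 34: probe sets with a single symbol covered 32, and 27 passed the filter. One passed the test, lower in tumour LEC (0.17% of all genes), and none higher (0.0463%), with 9 of 27 at an unadjusted p under 0.05 (15.5% of all genes). The groups did not overlap for 9 of 27 genes lower in tumour LEC, against 11.6% of all genes, and for 3 higher, against 20.9%. The median difference was -0.16 over the 27 genes. The gene that passed was Irs1, the docking protein of the IGF-1 and insulin receptors. Irs1 read 8.03, 7.13 and 7.37 on the normal and 2.61, 3.53 and 2.66 on the tumour arrays. All normal arrays were far above background, and on the tumour arrays replicates 1 and 3 were at background and replicate 2 was at its limit.

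The means of Irs1 were 7.51 ± 0.46 and 2.94 ± 0.52 (SD, n = 3), a difference of -4.57 (SE 0.35, 95% interval -5.44 to -3.70, adjusted p = 0.0253). With values at background raised to their limit, the tumour mean was at least 15.3-fold lower. That bound allows for background only, and the 95% interval, which ends at -3.70, reaches smaller differences. Irs1 has 1 probe set. Its direction held in all 16 alternatives, between -4.87 and -4.10, but its call was lost in 7 of the 16, among them with no filter (adjusted p = 0.0654), without normal replicate 2 (0.0638), normal replicate 3 (0.108), tumour replicate 1 (0.0774) or tumour replicate 3 (0.189), and without replicate 1 of both groups (0.0717). Without normal replicate 1, where fibroblast genes were highest, the Irs1 difference was -4.31 (adjusted p = 0.0257). The fibroblast list was also higher in normal replicates 2 and 3 (median deviations 1.15 and 1.28) than on the tumour arrays (-1.99 to -1.84). The part of fibroblasts in the Irs1 difference was not tested.

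The related docking protein gene Irs2 read 4.11 to 4.84 on the normal and 2.80 to 4.21 on the tumour arrays, a difference of -0.79 (SE 0.41, adjusted p = 0.412). Htra1, a secreted serine protease that can cut IGF-binding proteins, read 11.97, 10.13 and 9.78 on the normal and 7.51, 6.97 and 7.64 on the tumour arrays. Normal replicate 1 was the highest and the groups did not overlap. The difference was -3.26 (SE 0.60, adjusted p = 0.108), and -3.93 in its other probe set. Akt2, a kinase of insulin and IGF signalling, differed by -2.09 (SE 0.40, adjusted p = 0.113) in its brightest probe set, which can pick up related sequences, and by -0.34 in the next. Pappa, the protease that cuts IGFBP-4, differed by -1.08 (SE 0.63, adjusted p = 0.452).

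Some further genes were named after their values were seen. Grb14, an adaptor that inhibits the insulin receptor, read 7.70, 4.19 and 5.89 on the normal arrays in its brighter probe set. That set was at background on all tumour arrays, at least 5.11-fold lower (adjusted p = 0.200). The other Grb14 set was at background on all 6 arrays and differed by 0.10. Plagl1, an imprinted transcription factor, differed by -1.62 (SE 0.38, adjusted p = 0.159). On the other side, Socs2, an inhibitor of growth hormone signalling, differed by 1.09 (SE 0.22, adjusted p = 0.125), Ghr, the growth hormone receptor, by 1.00 (SE 0.37, adjusted p = 0.292), and Foxo1, a transcription factor that AKT keeps out of the nucleus, by 0.76 (SE 0.24, adjusted p = 0.239). The insulin receptor gene Insr read 6.97 to 7.91 on the normal and 7.79 to 8.47 on the tumour arrays, a difference of 0.67 (SE 0.31, adjusted p = 0.375).

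**Figure D4:**
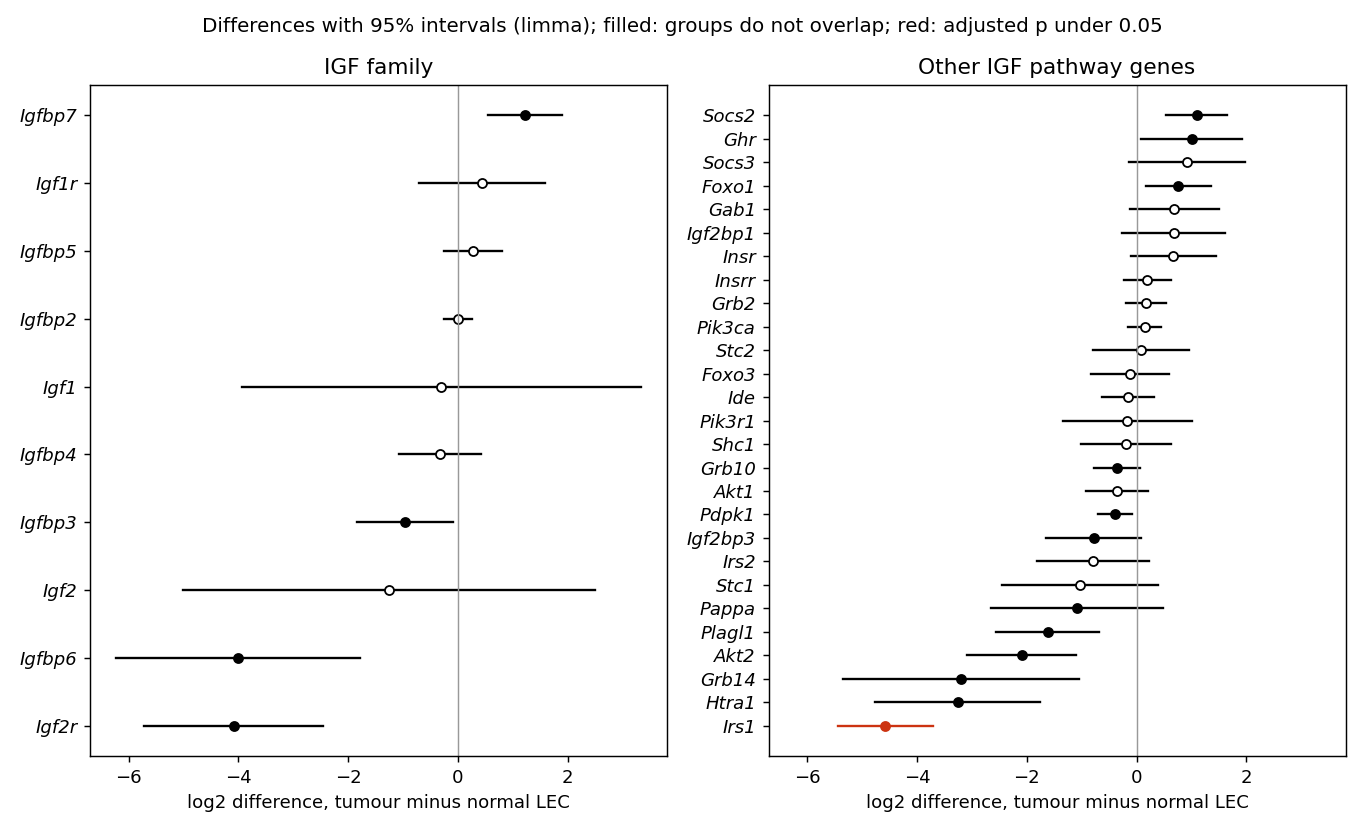
Log2 difference, tumour minus normal LEC (x axis), with 95% intervals from limma for the 10 IGF family genes (left) and the 27 other pathway genes tested (right); filled points have groups that do not overlap and red marks an adjusted p under 0.05. Irs1 alone is red, at -4.57, and the intervals of Igf1 and Igf2 reach far on both sides of 0.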

How the data were processed

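The authors deposited 1 log2 expression value per probe set and array. The submitters' processing notes name RMA and GCRMA, without version, role or order, so it is not stated which of them made the values. Dim values lie near a floor, where differences mean little. Each array was hybridised from 50 ng of RNA after amplification, per the labels. Probe sets were named by GEO's platform annotation with RefSeq identifiers (GRCm38.p6).

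Probe sets whose mean exceeded the 40th percentile (2.71) were tested, 1 per gene (the brightest), 12954 in all, with limma 3.58.1 in R 4.3.3 (lmFit and eBayes, two-sided, Benjamini-Hochberg over all genes, threshold 0.05). An exact permutation test of 3 against 3 arrays cannot reach a p below 0.1. Values at background were raised to their array's limit for folds given as "at least". Such a bound on the difference of means allows for background, not for the spread among arrays. The code was tested on simulated data.

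Members and lists were chosen with earlier results of these data known. All members were named, with the genes past the test and the 3 of smallest p in each list of other IGF pathway and mannose 6-phosphate sorting genes, and the 2 nearest profiles of the 3 members of widest range. Irs2, Pappa, Insr, the cathepsins, Grb14, Plagl1, Socs2, Ghr, Foxo1, and the neighbours of the Igf1 and Igfbp7 profiles were named after their values were seen.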

Additional observations from a re-analysis of the deposited data

How the results depend on the processing

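The count of family genes past the threshold stayed at 0 in all alternatives but 2: it was 3 with arrays weighted by quality (Igf2r, Igfbp6 and Igfbp7) and 1, Igfbp6 with adjusted p = 0.0355, with the replicate block. The replicate numbers were not shown to pair the arrays, since same-numbered arrays had correlations of their deviations of 0.19, 0.33 and -0.0038, and tumour replicate 3 correlated best with normal replicate 2. With the replicate block 46 genes passed in all, and Irs1 did not (adjusted p = 0.0674). The count over all genes was 28 and became 10 with no filter on low values, 97 with a filter at the 60th percentile, 385 with array weights, 4 to 82 with 1 array left out and 49 without replicate 1 of both groups, an alternative chosen after seeing the data. The median difference of the family was -0.32, lay between -0.76 and -0.0043 with 1 array left out, and was -0.65 with the 60th percentile filter, which leaves 8 members, and -0.67 without replicate 1 of both groups. Igf2r, Igfbp3, Igfbp4, Igfbp5, Igfbp6 and Igfbp7 kept their direction in every alternative run. The sign turned for Igf1 (range with 1 array left out -1.84 to 0.49), Igf2 (-2.27 to 0.34), Igf1r (-0.069 to 0.74, and 0.83 without replicate 1 of both groups) and Igfbp2 (-0.049 to 0.043), the last also with array weights (0.0088) and without replicate 1 of both groups (0.043). Quantile normalization, median centring, a variance trend, the mean of probe sets and leaving out probe sets prone to cross-hybridization moved no call of a family gene. The causes were not tested.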

Other observations

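Some members are neighbours in the RefSeq gene table. Igfbp2 and Igfbp5 are adjacent protein-coding genes on chromosome 1, and both were dim: Igfbp2 was at background on all 6 arrays, and Igfbp5 read 3.78 to 4.54. Igfbp1 and Igfbp3 are adjacent on chromosome 11. Igfbp1, a binding protein made by liver, did not pass the filter and read 2.10 to 2.20 on all arrays, at background, while Igfbp3 read 4.99 to 6.56. Igfals, which encodes the subunit that holds IGF and IGFBP-3 together in blood, was at background on all arrays as well, at 1.89 to 2.03, as were Pappa2, a protease related to Pappa, at 2.24 to 2.35, Irs4 at 2.31 to 2.45, and Igfbpl1 at 2.16 to 2.27.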
